A study of Acropora aff. hyacinthus sp. E JTL-2012 with 12 samples.

Results

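The transcripts described here are the developmental transcription factors of a reef coral: contigs of an assembled transcriptome whose description names a homeobox, LIM/homeobox, paired box, forkhead box, SOX, GATA, T-box, ETS or Krueppel-like factor, the transcriptional regulator ERG, a nuclear receptor subfamily member, or Juxtaposed with another zinc finger protein 1 (JAZF1). A word search of the deposited descriptions found 114 such contigs among 16980. Every one was kept. The words searched for were chosen with earlier results of these data known: a contig of JAZF1 (contig79841) and one of ERG (contig175601) had already been seen to be lower in pool 300, and both names were then words of the search. Counts that include JAZF1 or ERG contigs are therefore descriptions, and their excess over the share of all contigs is no independent evidence. They carry 73 descriptions, and 65 of the contigs share theirs with at least 1 other. Contigs under 1 description may be pieces of 1 transcript, copies of 1 gene or related genes, so they are not independent of each other.

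RNA came from polyps of Acropora aff. hyacinthus, a tabletop coral that hosts algae of the genus Symbiodinium. Each of 6 colonies had a fragment in each of 2 reef pools, called 300 and 400, of which pool 300 is known as the one with larger swings of temperature. Corals 2, 7 and 75 originated in pool 300 and corals 40, 68 and 70 in pool 400, which gives 4 groups of 3 libraries: each origin at home, and each origin moved to the other pool. Fragments were moved on August 3, 2010 and collected around noon on August 30, 2011, and no group carries a genetic change or a drug. Each group was collected at 1 time of 1 day, and the ages of the colonies are not given in the sources used here.

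Transcription factors of these families bind DNA through a conserved domain and turn other genes on or off. In animals they set the fates of cells in the embryo, and many stay active in the adult, where they keep cell types and renew tissue. Homeobox, paired box, forkhead, SOX, GATA, T-box and ETS genes are all known from corals and other cnidarians, whose bodies grow and replace cells throughout life. The roles given below come from vertebrates or insects unless stated otherwise, since a description is the name of a similar protein and not a tested function in this coral.

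A value below is the number of reads on a contig divided by a factor for its library, as the authors deposited it, and 1 read is worth 0.586 to 1.66 depending on the library. The libraries held between 557339 and 1643526 recovered reads (median 885480), and a mean value of at least 10 over the 12 libraries was asked of a contig before it was tested. Of the members 87 passed, with means of 10.3 to 540, and 27 did not, with means of 2.97 to 9.81. Of all contigs 70.1% passed, and of the members 76.3%. Contig lengths were not used here, so levels are compared between libraries and never between contigs. In RNA of whole tissue, fewer cells of a type and less RNA per cell cannot be told apart.

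A pair of corals and a library stood apart. The fragments labelled coral 40 and coral 68 matched each other across the pools better than their own: 80 contigs had no read in one fragment and 20 or more in its labelled partner, and 26 did when the partners were crossed. Both corals are of origin 400, so a crossing leaves the 4 groups as they are and changes only the pairing. Differences of single corals and counts of corals by direction use the labelled pairs below. For corals 40 and 68 they depend on that pairing. The deposited factors of pool 300 lay within 0.998 and 1.005 times the median-ratio factors of the recovered reads, and those of pool 400 between 0.641 (coral 70) and 1.29 times (coral 2). The median pool difference over all contigs in coral 70 was therefore -0.53 on the log2 scale as deposited and 0.09 after median-ratio rescaling. Results are given with and without these corals, or rescaled, wherever that changes a call.

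Colonies of 1 origin took a median of 47.5% of a contig's spread over the 12 libraries, pool 3.79%, origin 4.39%, the difference between origins in the pool response 3.99% and the remainder 28.5%. Over all contigs these medians were 51.1%, 2.37%, 6.01%, 2.83% and 24.8%. The shares are sums of squares with different degrees of freedom and cannot be ranked against each other. The range of a member over the 12 libraries had a median of 2.11 on the log2 scale, and that of all contigs 1.82. The SD over the 6 corals of the difference between pools had a median of 0.72 in members and 0.61 in all contigs.

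The first question was which of these regulators differed with the pool where a fragment was kept. In pool 300, 3 of 87 tested members were lower than in pool 400 and 0 were higher by the test over all 6 corals (limma, Benjamini-Hochberg adjusted p under 0.05 over 11903 contigs). The 3 were a contig of JAZF1 and 2 contigs of the transcriptional regulator ERG. In the background, 0.344% of all contigs were called lower and 0% higher, against 3.45% of the members. All 3 called members carry the names JAZF1 or ERG, which the choice of search words favoured, and 0 of the other members were called, so nothing is read from the higher share. An unadjusted limma p under 0.05 was found for 13 of 87 members of either direction, and for 580 of all 11903 contigs. The 13 include the JAZF1 and ERG contigs that the choice of words favoured. The members as a whole did not shift: 44 of 87 (50.6%) were lower in pool 300, with a median log2 difference of -0.01, where 44.4% of all contigs were lower, with a median of 0.03. Single members ran from -2.05 to 1.12.

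**Figure D1:**
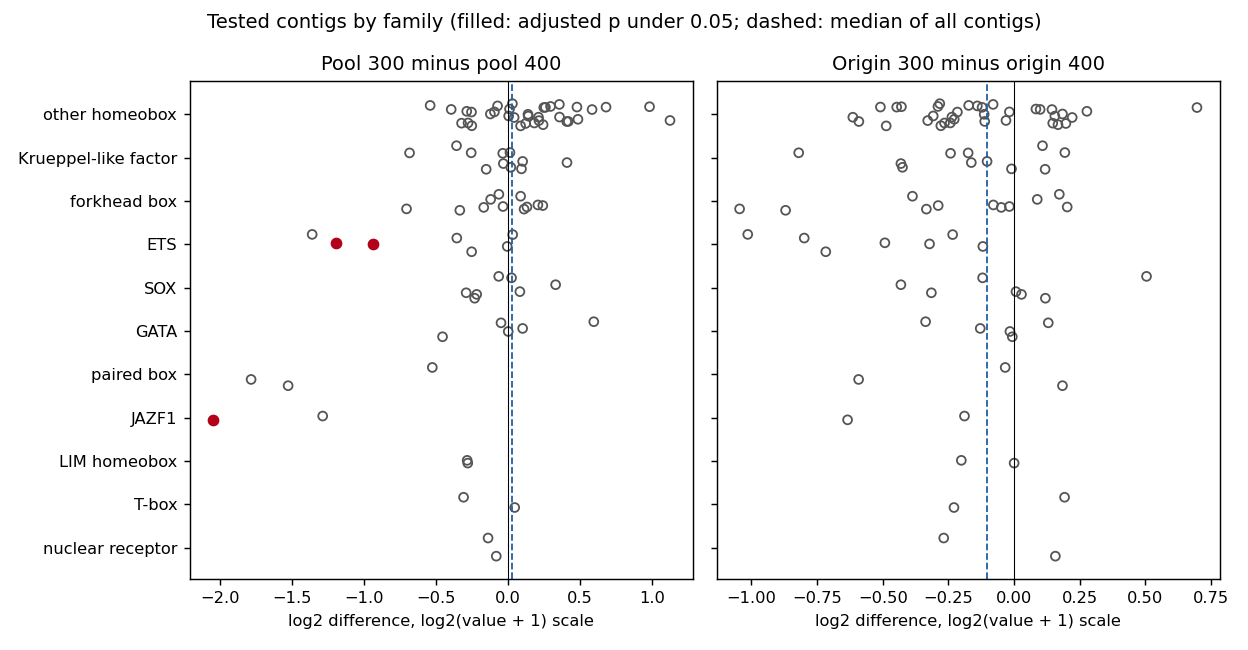
Differences of the 87 tested members by family on the log2(value + 1) scale, on the left pool 300 minus pool 400 over 6 corals and on the right origin 300 minus origin 400; each point is a contig, filled where the adjusted p was under 0.05, and the dashed line is the median of all contigs. Filled points are seen on the left side in JAZF1 and ETS, and none on the right.

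JAZF1 is a zinc finger protein of the nucleus, known in mammals as a partner that represses a nuclear receptor of the NR2C group and as a gene tied to metabolism. Its contig79841 was at 26.1, 24.3 and 50.3 in pool 300 and 108, 203 and 333 in pool 400 in corals 2, 7 and 75. Corals 40, 68 and 70 had 71.5, 79.5 and 65.7 in pool 300 and 278, 199 and 166 in pool 400. Every library of pool 300 lay below every library of pool 400, and the lowest of all were corals 2 and 7 in pool 300. The means were 52.9 ± 23.5 in pool 300 and 214.4 ± 80.1 in pool 400 (SD, n = 6 corals), and the contig fell by 2.05 log2 units (SE 0.23, limma adjusted p = 0.0102). It was lower in pool 300 in 6 of 6 corals, with differences from -1.32 (coral 68) to -3.01 (coral 7), and stayed so after rescaling, when coral 70 still had -0.69. On the recovered reads the adjusted p was 0.0283 with edgeR and 4.98e-10 with DESeq2. The limma adjusted p was 0.0314 after rescaling and 0.0167 without the coral as a block. Leaving out coral 2 gave 0.0536, coral 75 gave 0.0507 and corals 40 and 68 together gave 0.0595, at log2 differences of -2.06, -1.92 and -2.26.

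The other JAZF1 contig, contig129405, had 89.8, 57.3 and 133 in pool 300 and 387, 292 and 320.0 in pool 400 in corals 2, 7 and 75. In corals 40, 68 and 70 it had 123, 178 and 167 in pool 300 and 275, 301 and 181 in pool 400. The pools again did not overlap, with coral 68 at the top of pool 300 just under coral 70 at the bottom of pool 400. Over 6 corals the log2 difference was -1.29 (SE 0.26, limma adjusted p = 0.0818), which did not pass. DESeq2 gave an adjusted p of 0.00263, in a comparison where it called 104 of all contigs and limma 41. Coral 70 differed by -0.12 as deposited and by 0.52 after rescaling, so that its direction depends on the scaling.

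Nuclear receptor subfamily 2 group C member 1, a name of the NR2C group that is not taken here as the partner of JAZF1, had 2 contigs and neither passed. Contig146729 lay between 4.97 and 22.9 over the 12 libraries, with a pool difference of -0.14, and contig147958 between 55.7 and 139, with -0.08 (limma adjusted p = 1 for each). The sign of the first turned without coral 70.

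**Figure D2:**
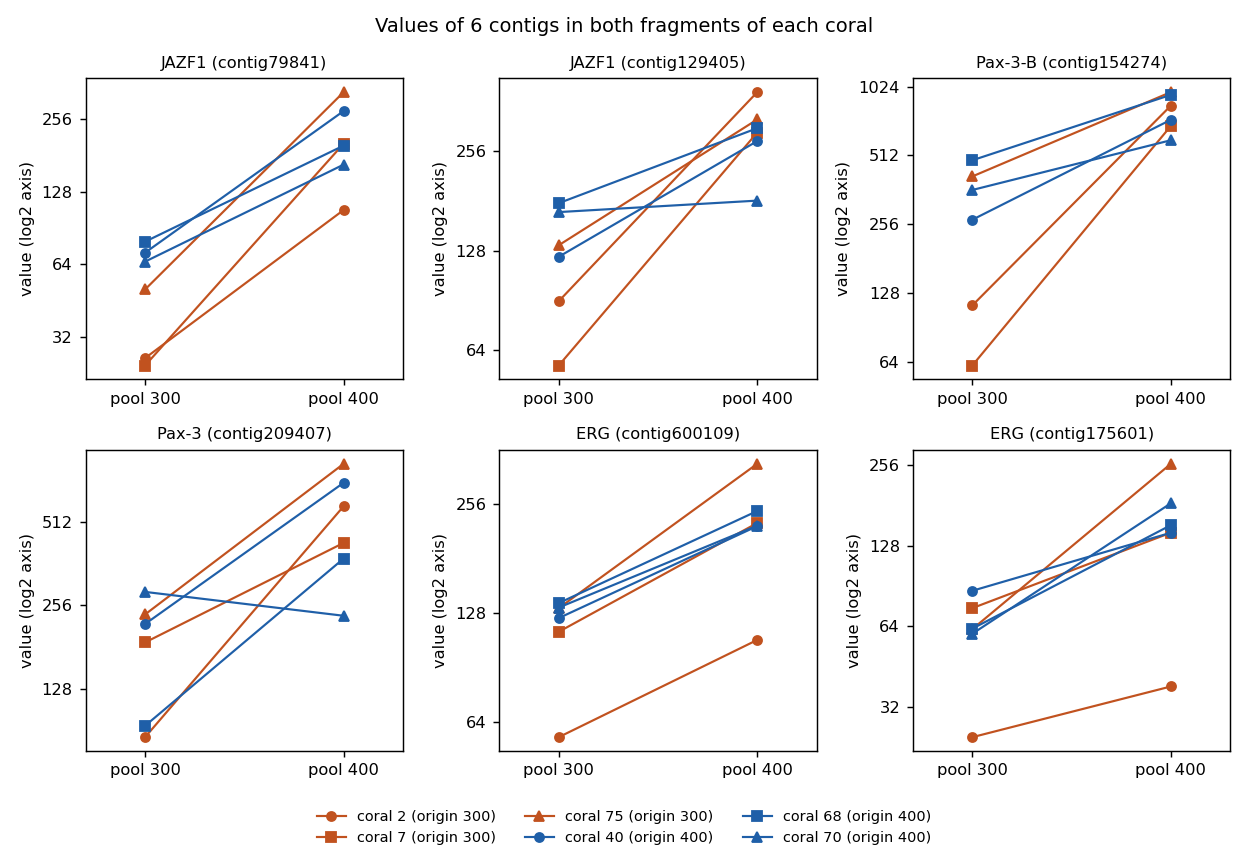
Value (reads divided by the library's factor, on a log2 axis) of 2 contigs each of JAZF1, Pax-3 and ERG in the fragment of each coral in pool 300 and in pool 400; a line joins both fragments of a coral, orange for origin 300 and blue for origin 400. In JAZF1 contig79841 and contig129405 and in Pax-3-B contig154274 all libraries of pool 300 lie below all of pool 400, and the line of coral 70 rises the other way in Pax-3 contig209407.

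ERG is a transcription factor of the ETS family, which acts in blood, vessel and cartilage formation of vertebrates, and ETS proteins often act below growth factor and MAP kinase signals. ERG contig600109 had 57.9, 113 and 132 in pool 300 and 108, 227 and 331 in pool 400 in corals 2, 7 and 75. Corals 40, 68 and 70 had 124, 136 and 132 in pool 300 and 222, 245 and 223 in pool 400. The fall was of like size in all 6 corals, and the libraries of the pools overlapped only through the pool 400 fragment of coral 2, which was low in both pools. The pool means were 115.8 ± 29.5 and 225.8 ± 71.2 (SD, n = 6), a fall of 0.94 log2 units (SE 0.12, limma adjusted p = 0.0173), and the single corals fell by 0.75 to 1.32. Without the block, which takes out the level of coral 2, the limma adjusted p was 0.333. With edgeR the adjusted p was 0.0698 and with DESeq2 0.0009. In limma it was 0.0949 after rescaling, which left coral 70 at -0.11. Leaving out coral 2, 7, 75 or 40 gave 0.0536, 0.0713, 0.0784 and 0.0604, at log2 differences of -0.95, -0.93, -0.86 and -0.96, and leaving out corals 40 and 68 gave 0.119.

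ERG contig175601 had 24.6, 74.7 and 62.4 in pool 300 and 38.1, 143 and 259 in pool 400 in corals 2, 7 and 75. In corals 40, 68 and 70 it had 86.8, 62.6 and 59.9 in pool 300 and 143, 153 and 184 in pool 400. Coral 2 was again the lowest of each pool, and its pool 400 library is the one that overlaps pool 300. The contig fell by 1.19 (SE 0.20, limma adjusted p = 0.042), from 153.3 ± 71.5 in pool 400 to 61.8 ± 20.9 in pool 300 (SD, n = 6), in 6 of 6 corals. It passed after rescaling (limma adjusted p = 0.0314), with edgeR (0.0283) and with DESeq2 (2.27e-05). In limma it missed without the block (0.629), with any single coral left out (0.0657 to 0.154) and without corals 40 and 68 (0.203). A further ERG contig, contig178336, had a mean of 4.88 and was not tested.

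The other tested ETS contigs were 1 of Elk-1, 1 of Elk-4 and 3 of Elf-2, and none passed. Elk-1 and Elk-4 are the ternary complex factors, which join the serum response factor on early response genes. Elk-1 contig150730 had 7.24, 33.6 and 9.05 in pool 300 and 31.5, 34.0 and 227 in pool 400 in corals 2, 7 and 75. The other origin had 71.5, 18.1 and 90.4 in pool 300 and 240.4, 38.5 and 40.9 in pool 400 in corals 40, 68 and 70. The pools overlapped widely, with coral 75 and coral 40 in pool 400 far above the rest and coral 70 higher in pool 300 (log2 difference -1.36, SE 0.57, limma adjusted p = 0.969). Elk-4 contig109454 was at 339 in the pool 400 library of coral 40 and between 29.8 and 112 in the other libraries. That library was the highest of the 12 in each of these 5 contigs, which was seen only after their values were known, and the coral 40 pair is one of the doubtful ones. Of the 7 tested ETS contigs 6 were lower in pool 300, with a median of -0.36, as deposited and after rescaling (-0.37).

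Paired box proteins, the Pax family, pattern nerve cells, sense organs and muscle in animals, and Pax genes are known from corals. Pax-3-B contig154274 had 113, 61.6 and 414 in pool 300 and 846, 689.7 and 970 in pool 400 in corals 2, 7 and 75. Corals 40, 68 and 70 had 268, 488 and 362 in pool 300 and 734, 943 and 597 in pool 400. No library of pool 300 reached any of pool 400, although coral 75 in pool 300 was far above corals 2 and 7. The means were 284.4 ± 169.4 and 796.5 ± 147.7 (SD, n = 6), a pool difference of -1.78 (SE 0.33, limma adjusted p = 0.0663), lower in 6 of 6 corals. The test over 6 corals was therefore missed on the deposited values. It passed with no minimum on the mean (limma adjusted p = 0.0426), with corals 40 and 68 exchanged in the block (0.0349) and without coral 70 (0.0482), and moved away after rescaling (0.2).

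Pax-3 contig209407 had 85.4, 188 and 237 in pool 300 and 585, 431 and 832 in pool 400 in corals 2, 7 and 75. In corals 40, 68 and 70 it had 219, 93.9 and 286 in pool 300 and 711, 378 and 235 in pool 400. Coral 70 stood against the other 5, with its pool 300 fragment the higher one. The log2 difference was -1.53 (SE 0.31, limma adjusted p = 0.0827), with -2.76 in coral 2 at one end and 0.29 in coral 70 at the other. Pax-6 contig68003, whose namesake directs eye formation in animals with eyes, lay between 4.76 and 46.4 and had a pool difference of -0.53 (limma adjusted p = 1). A second Pax-3-B contig, contig105296, had a mean of 3.68 and was not tested.

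**Figure D3:**
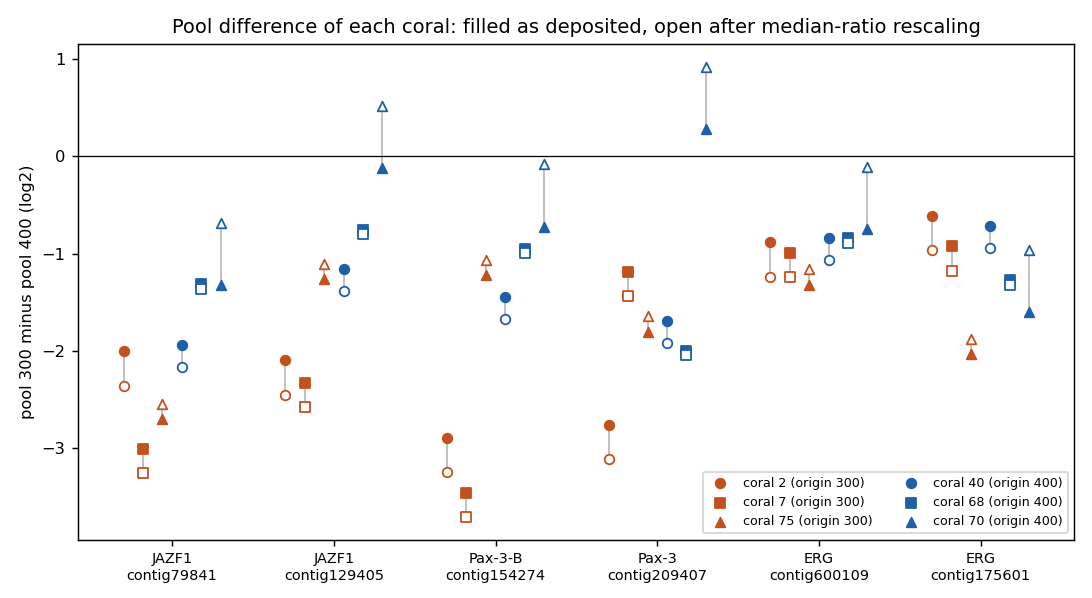
Pool 300 minus pool 400 on the log2(value + 1) scale for each coral in the same 6 contigs, filled as deposited and open after median-ratio rescaling of the recovered reads. Rescaling moves coral 70 up and corals 2, 7 and 40 down; after it coral 70 is above 0 in JAZF1 contig129405 and Pax-3 contig209407 and below 0 in the other 4.

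Homeobox genes outside the paired and LIM groups were the largest family, with 46 contigs and 35 tested, and none passed in either direction. More of them were higher than lower in pool 300: 10 of 35 (28.6%) were lower in pool 300, with a median log2 difference of 0.14, and after rescaling 12 (34.3%) were, with the same median. Over all contigs 44.4% were lower as deposited and 46.3% after rescaling. Contigs of 1 description sit in this count more than once. The 9 tested OTX contigs, named for regulators of head and forebrain formation, lay between -0.25 and 0.42, and the 3 of Nkx-2.5, named for a heart regulator, between 0.14 and 0.24 (limma adjusted p = 1 for each).

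Nkx-2.2a, which in vertebrates specifies nerve cells of the ventral neural tube and hormone cells of the pancreas, had the highest pool differences of all members. Its contig5372 had 4.34, 41.1 and 13.1 in pool 300 and 1.66, 6.98 and 16.9 in pool 400 in corals 2, 7 and 75. The corals of origin 400 (40, 68 and 70) had 27.0, 4.82 and 24.7 in pool 300 and 8.26, 1.37 and 13.9 in pool 400. It was higher in pool 300 in 5 of 6 corals, coral 75 being the exception, but the libraries overlapped and several held only a few reads (log2 difference 1.12, SE 0.40, limma adjusted p = 0.708). In a crossed pairing coral 68 in pool 300 (4.82) would stand below coral 40 in pool 400 (8.26). Contig115909 of the same description had 0.98 (SE 0.39, limma adjusted p = 0.883) and contig112855 had 0.68 (SE 0.31, limma adjusted p = 1), each higher in pool 300 in 5 of 6 corals as deposited. After rescaling contig112855 was higher in 4 of 6.

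Other homeobox contigs named by small p did not pass either. XENK-2 contig113105, named for a frog relative of the Nkx group, ran from 71.0 to 162 in pool 300 and from 47.1 to 143 in pool 400, a pool difference of 0.58 (SE 0.22, limma adjusted p = 0.823). Wariai contig53493, named for a homeobox protein of the slime mould Dictyostelium, had -0.54 (SE 0.20, limma adjusted p = 0.742), lower in 5 of 6 corals as deposited and in 6 of 6 after rescaling. A contig of Diencephalon/mesencephalon homeobox protein 1-B (contig179113), chosen here for its signs, had -0.40 (SE 0.17, limma adjusted p = 0.954) and was lower in 6 of 6 corals on both scales. The other tested contig of that description, contig68691, had 0.12 (SE 0.14) and was lower in 2 of 6 on both scales. The LIM/homeobox contigs of Lhx1, a regulator of head organization, had -0.28 and -0.28 (limma adjusted p = 1 for each).

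Krueppel-like factors are zinc finger proteins that govern the growth and maturing of epithelial and other cells. None of 11 tested contigs passed, and 6 were lower in pool 300. KLF5 contig204589 had 243, 123 and 268 in pool 300 and 606, 346 and 259 in pool 400 in corals 2, 7 and 75. The values of corals 40, 68 and 70 were 213, 383 and 230.3 in pool 300 and 216, 509 and 440 in pool 400. Corals 2 and 7 were clearly higher in pool 400, while corals 75 and 40, the latter as labelled, hardly differed as deposited (log2 difference -0.68, SE 0.21, limma adjusted p = 0.447). The pairing of corals 40 and 68 is doubtful. Crossed, 213 in pool 300 would stand against 509 in pool 400, and 383 against 216. Coral 68 differed by -0.41 as deposited and -0.46 after rescaling, and coral 70 by -0.93 and -0.29. The other tested KLF5 contigs, contig158041 and contig16231, had -0.36 and -0.15 (limma adjusted p = 1 for each). KLF15 contig212643 was the member higher in pool 300 in all 6 corals as deposited, by 0.06 to 1.32, and in corals 7 and 40 it was lower after rescaling (log2 difference 0.41, SE 0.20, limma adjusted p = 1). In a crossed pairing coral 68 in pool 300 (79.5) would stand below coral 40 in pool 400 (81.8). The other tested KLF15 contig, contig97836, went the other way, at -0.26. It was lower in pool 300 in 4 of 6 corals as deposited and in 3 after rescaling.

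Forkhead, SOX, GATA, T-box and LIM contigs gave no call. Of 11 forkhead contigs 6 were lower in pool 300, of 7 SOX contigs 4, of 5 GATA contigs 2 and of 2 T-box contigs 1. FoxO, a regulator of stress resistance and lifespan that insulin signals hold in check, had 3 tested contigs, at -0.70 (contig108751), -0.12 (contig167539) and -0.17 (contig171142; limma adjusted p = 1 for each). SOX-4 contig64945, a factor of progenitor cells, had -0.22, TBX1 contig97794, a regulator of pharynx and heart formation, -0.31, and GATA-binding factor 2 contig138240, a blood cell factor, 0.59 (limma adjusted p = 1 for each). The TBX1 value was 0.02 without coral 70. Among the GATA matches are GATA zinc finger domain-containing protein 1 and GATA-type zinc finger protein 1, which carry the finger but are not GATA-binding factors by name.

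The direction in single corals gives a count that uses no test. As deposited, 6 of 87 members (6.9%) were lower in pool 300 in all 6 corals: both JAZF1 contigs, both tested ERG contigs, Pax-3-B contig154274 and contig179113. The background was 1.76% of all contigs, and 4 of the 6 carry the names JAZF1 or ERG, chosen with their falls partly known. After rescaling the background was 1.86% and again 6 members were lower in all 6, with Wariai contig53493 in and JAZF1 contig129405 out. Members higher in all 6 corals numbered 1, KLF15 contig212643, where the background was 1.82%. All 6 libraries of pool 300 lay below all 6 of pool 400 in 3 members (contig79841, contig129405 and contig154274), or 3.45%, with a background of 0.47%, and 2 of the 3 are JAZF1.

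The second question was how corals of each origin responded to the pool. Both origins were fitted in 1 model of all 12 libraries with a shared residual spread. The SE and p of an origin therefore draw on the corals of the other as well, while the SD printed beside them does not. The corals from pool 300 were at home there, and in them 4 members were lower in pool 300 than in pool 400 and 0 were higher, with backgrounds of 0.538% lower and 0.0168% higher. The 4 were both JAZF1 contigs, Pax-3-B contig154274 and ERG contig600109. They make up 4.6% of the tested members, but 3 of the 4 carry the names JAZF1 or ERG, so that the choice of search words enters this share, and 1 called member, Pax-3-B, does not. In these corals 13 of 87 members had an unadjusted limma p under 0.05, and 561 of all 11903 contigs did. The JAZF1 and ERG contigs that the choice of words favoured are among the 13. JAZF1 contig79841 went from 214.5 ± 113 in pool 400 to 33.6 ± 14.5 at home (SD, n = 3), a change of -2.57 (SE 0.25, limma adjusted p = 0.00339). It kept its call in these corals in each of the 17 other settings. Its limma, edgeR or DESeq2 adjusted p there ran from 5.91e-11 to 0.0294. Settings that left out only corals from pool 400 removed no library of these corals. They could change the shared spread but not the difference, so they are no separate check of it. JAZF1 contig79841 had been seen to be lower in pool 300 before the search words were chosen, so its calls are descriptions.

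JAZF1 contig129405 went from 333.2 ± 49.0 in pool 400 to 93.3 ± 37.9 at home in the corals of origin 300 (SD, n = 3), a change of -1.90 (SE 0.25, limma adjusted p = 0.00758). Pax-3-B contig154274 went from 835.1 ± 140.3 in pool 400 to 196.4 ± 190.6 in pool 300 (SD, n = 3), where coral 75 alone stood above 400, and fell by 2.53 (SE 0.34, limma adjusted p = 0.00758). ERG contig600109 fell by 1.07 (SE 0.17, limma adjusted p = 0.0259). In all 3 contigs the falls were shared by corals 2, 7 and 75, and in Pax-3-B coral 75 fell least, by 1.22. Pax-3 contig209407 was at -1.92 (SE 0.40, limma adjusted p = 0.0923) and Elk-1 contig150730 at -2.17 (SE 0.74, limma adjusted p = 0.66).

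These 3 calls rested on few corals. DESeq2 also passed JAZF1 contig129405 (adjusted p = 1.46e-05) and ERG contig600109 (0.00585) here. It called 116 of all contigs in this comparison, where limma called 66. After rescaling the limma adjusted p were 0.0573 (JAZF1 contig129405), 0.0388 (Pax-3-B) and 0.0786 (ERG contig600109), and with edgeR 0.0558, 0.0547 and 0.057. Without coral 2 they were 0.0986, 0.105 and 0.0986, at log2 differences of -1.80, -2.34 and -1.16. Without coral 7 they were 0.0683, 0.0416 and 0.226, at -1.68, -2.06 and -1.10. ERG contig600109 also missed without coral 75 (0.188), without the block (1) and with corals 40 and 68 exchanged (0.0649).

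Toward the higher side in the same corals, TGIF1 contig115264, a homeobox repressor in TGF-beta signalling chosen here after its values were seen, had 109, 118 and 133 in pool 300 and 49.7, 71.5 and 99.3 in pool 400 in corals 2, 7 and 75. The groups did not overlap, with a pool difference of 0.75 (SE 0.31, limma adjusted p = 0.942). How many of all contigs separate in this way in these 3 corals was not counted, so nothing is read from it. Nkx-2.2a contig115909 was higher in pool 300 in each of the 3 corals, by 1.53 on average (SE 0.52, limma adjusted p = 0.654). BarH-like 2 contig111306, whose namesake acts in nerve cells, had 46.3, 28.02 and 20.1 in pool 300 and 9.94, 19.2 and 17.96 in pool 400, a difference of 0.93 (limma adjusted p = 1).

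For corals from pool 400, pool 300 was the foreign site, and 0 members passed, with a background of 0% of all contigs. An unadjusted p under 0.05 was found for 7 of 87 members by limma, and for 244 of all 11903 contigs. By edgeR it was found for 5 members and 324 contigs. Both JAZF1 and both tested ERG contigs, which the choice of words favoured, are among the 7, so nothing is read from their share. No member was called by edgeR, while DESeq2 called 1 member and 8 of all contigs. JAZF1 contig79841 had the lowest difference, from 214.4 ± 57.2 in pool 400 to 72.2 ± 6.94 in pool 300 (SD, n = 3), at -1.53 (SE 0.25, unadjusted p = 0.000104, limma adjusted p = 0.262). It was the member that DESeq2 called (adjusted p = 0.0456). Pax-6 contig68003 had -1.48 and ERG contig175601 -1.20, followed by Pax-3 contig209407 at -1.14, Pax-3-B contig154274 at -1.04 and ERG contig600109 at -0.81. Their limma adjusted p ran from 0.69 to 1. At the other end Nkx-2.2a contig5372 had 1.23 and contig112855 0.69 (limma adjusted p = 1 for each), both higher in pool 300 in corals 40, 68 and 70 as deposited.

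**Figure D4:**
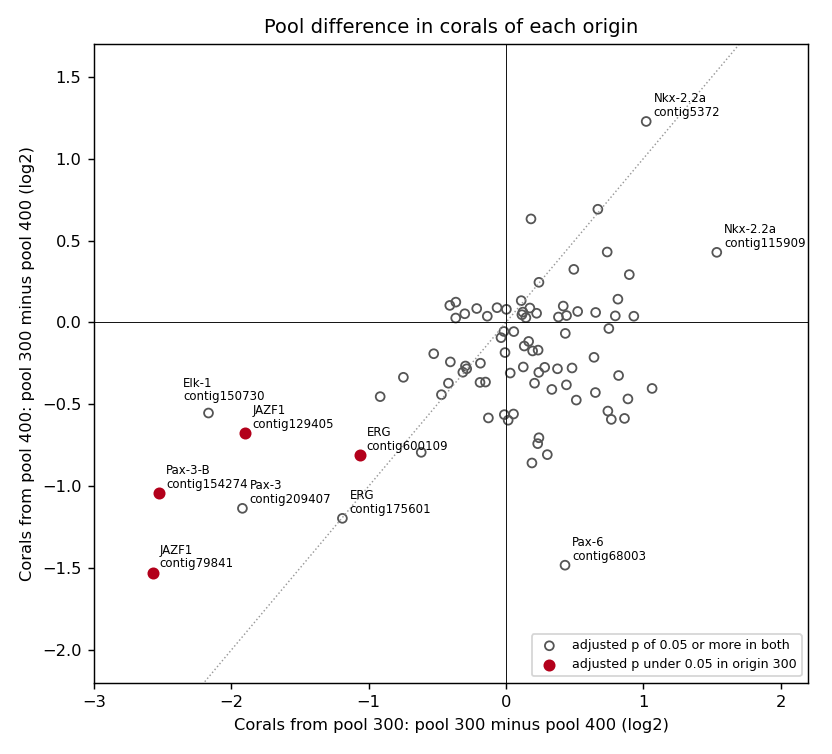
Pool 300 minus pool 400 on the log2(value + 1) scale for the 87 tested members, in corals from pool 300 (horizontal axis) and from pool 400 (vertical axis); each point is a contig, filled where the adjusted p was under 0.05 in corals from pool 300, and the dotted line marks equal differences. JAZF1, Pax-3-B, Pax-3, Elk-1 and ERG lie at the lower left, and Pax-6 is below 0 on the vertical axis alone.

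The difference between origins in the pool response was tested itself, and 0 members passed, with a background of 0% of all contigs. An unadjusted p under 0.05 was found by limma for 3 of 87 members and for 211 of all 11903 contigs. By edgeR it was found for 3 members and 214 contigs, and edgeR called 0 members. Both JAZF1 contigs, which the choice of words favoured, are among the 3 of limma. JAZF1 contig79841 was further apart between pools in corals of origin 300 than in those of origin 400 (-1.05 log2 units, unadjusted p = 0.0139, limma adjusted p = 1). For JAZF1 contig129405 this difference was -1.22 (SE 0.36, unadjusted p = 0.00625) and for Pax-3-B contig154274 it was -1.49 (SE 0.48, unadjusted p = 0.0105), and neither passed (limma adjusted p = 1 in both). Pax-6 contig68003 went the other way, at 1.91 (SE 0.90, limma adjusted p = 1), with its highest value, 46.4, in the pool 400 fragment of coral 70. That a contig passed in one origin and missed in the other therefore does not show that the origins differed. Members with one sign in all corals of an origin and the opposite sign in all of the other numbered 0, where the background was 0.832%.

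The middle of the set lay close to the middle of all contigs in origin 300 and somewhat below it in origin 400. For origin 300 the members' median was 0.17 and that of all contigs 0.13, with 36.8% and 33.6% lower in pool 300. For origin 400 the medians were -0.25 and -0.09, with 65.5% and 61.2% lower. The medians followed the scaling: after rescaling they were 0.02 and -0.02 for origin 300, with 48.3% and 52.2% lower. For origin 400 they were then -0.13 and 0.03, with 58.6% and 45.8% lower, so the gap there remained, but not in each coral. Coral 40 went the other way, with rescaled medians of 0.18 in members and -0.04 in all contigs. Coral 68 had -0.20 and -0.003, and coral 70 had -0.14 and 0.09. The gap was not tested. In coral 70 alone 69 of 87 members were lower in pool 300 as deposited and 51 after rescaling. The homeobox family had 7 of its 35 contigs lower in pool 300 in corals of origin 300 (11 after rescaling) and 18 in those of origin 400 (16).

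The third question was what stayed with the pool of origin whichever pool a fragment lived in. Here 0 members passed on the means of 3 corals against 3, with a background of 0.0336% of all contigs. An unadjusted p under 0.05 was found by limma for 0 of 87 members and for 314 of all 11903 contigs. By edgeR it was found for 1 member and 335 contigs, and edgeR called 0 members. As deposited, 61 of 87 members (70.1%) were lower in origin 300, with a median of -0.14, and 62.0% of all contigs were, with a median of -0.10. After rescaling these were 50.6% and 46.8%, with medians of 0.00 and 0.03, so the lean of the members moved with that of all contigs. All 7 tested ETS contigs were lower in origin 300 as deposited and 6 after rescaling.

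FoxO contig108751 had the lowest difference between origins. It was at 2.90, 7.47 and 4.02 in pool 300 and 3.31, 12.2 and 9.51 in pool 400 in corals 2, 7 and 75. The other origin, in corals 40, 68 and 70, had 18.2, 8.43 and 5.71 in pool 300 and 9.91, 12.4 and 42.2 in pool 400. The coral means did not overlap, at 6.57 ± 3.37 in origin 300 and 16.1 ± 7.03 in origin 400 (SD, n = 3 corals), but single libraries did, and most rest on fewer than 20 reads (log2 difference -1.04, SE 0.58, limma adjusted p = 0.998). Coral means also did not overlap in Nkx-2.2a contig112855, at 14.6 ± 1.699 and 20.9 ± 6.02, and in KLF7 contig22411, at 8.61 ± 2.89 and 12.5 ± 1.24 (SD, n = 3 corals). These 3 of 87 members (3.45%) compare with a background of 6.16%.

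On the higher side of origin, Wariai contig118039 averaged 16.1 ± 4.595 in origin 300 and 9.59 ± 3.58 in origin 400 (SD, n = 3 corals; log2 difference 0.70, limma adjusted p = 0.998). SOX-9 contig70496, a factor of cartilage and gonad formation in vertebrates, averaged 153 ± 15.4 and 118 ± 35.8 (SD, n = 3 corals; log2 difference 0.50, limma adjusted p = 0.998). In pool 400 SOX-9 was highest in coral 70 (217) and lowest in coral 40 (51.2), both of origin 400. Elk-1 contig150730 was at -1.01, JAZF1 contig79841 at -0.63 and KLF10 contig150784, an early target of TGF-beta, at -0.43, none of which passed (limma adjusted p = 0.998 for each).

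Other transcription factors of development that the word rule does not hold were taken from a list of names: snail, HES and hairy-related repressors, SMAD proteins, runt, early growth response, POU, AP-2, doublesex-related and the like. It had 52 contigs, of which 44 were tested. Over 6 corals 1 fell in pool 300 and 0 rose, where 0.344% of all contigs fell and 0% rose, and after rescaling 0 of the list passed. As deposited 22 of 44 (50.0%) were lower, with a median of -0.02. The one that fell was Snail (contig60554, Protein snail homolog Sna), a repressor active in cell migration and mesoderm formation, which corals are known to have. It had 177, 184 and 188 in pool 300 and 306, 312 and 360.2 in pool 400 in corals 2, 7 and 75. The corals from pool 400 had 155, 240 and 210.3 in pool 300 and 243, 315 and 362 in pool 400, in the order 40, 68 and 70. Every library of pool 300 was below every one of pool 400, narrowly so between coral 68 and coral 40. The contig fell by 0.72 (SE 0.10, limma adjusted p = 0.0205), in 6 of 6 corals by 0.39 to 0.93. The adjusted p was 0.0129 with DESeq2 and 0.104 with edgeR, and in limma 0.178 after rescaling and 0.0805 without the block. It was 0.106 with corals 40 and 68 exchanged, 0.116 without them, and 0.0796, 0.115, 0.134 and 0.0604 without coral 2, 7, 75 or 40.

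Within origin 300, 2 of the 44 fell (0 after rescaling), where 0.538% of all contigs did: Snail, by 0.83 (SE 0.15, limma adjusted p = 0.0496), and Early growth response protein 1 (contig68383), an immediate early zinc finger factor that growth and stress signals switch on within minutes to hours in vertebrates. The call of Snail in these corals ended in 12 of 17 other settings, at adjusted p from 0.0502 to 0.436. Among them were rescaling (0.164), edgeR (0.11) and the omission of any single coral but coral 40. DESeq2 kept the call (0.0258). Early growth response protein 1 had 358, 149 and 991 in pool 300 and 1755, 1398 and 1822 in pool 400 in corals 2, 7 and 75. Coral 75 was again the highest of its group in pool 300, as in Pax-3-B contig154274. Early growth response protein 1 fell by 2.13 (SE 0.32, limma adjusted p = 0.0154). The adjusted p was 1.1e-06 with DESeq2 and 0.0921 with edgeR. In limma it was 0.0779 after rescaling, 0.088 without the block and 0.174 without coral 2. Within origin 400 the same contig differed by -0.57 (limma adjusted p = 1), and the difference between origins was -1.56 (SE 0.46, limma adjusted p = 1). Runt-related transcription factor 1 (contig145294), a blood cell factor in vertebrates, had -1.30 over 6 corals (SE 0.25, limma adjusted p = 0.0758).

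Marker lists of cell types gave few calls over 6 corals: 0 of 2 tested cnidocyte contigs, 0 of 25 of muscle, 1 of 21 of neurons (a synaptotagmin, lower in pool 300, and 0 after rescaling), 0 of 24 of oocytes and germ line, 0 of 42 of sperm and cilia and 0 of 4 of Symbiodinium. Their median differences were -0.28, 0.11, -0.13, -0.03, -0.01 and -0.02. In corals of origin 300, 1 of the 21 neuron contigs was called lower in pool 300 as deposited and 1 after rescaling, and no other marker contig. Of all 11903 contigs 64 were called lower there as deposited and 48 after rescaling. Stinging cells define a cnidarian polyp, and the 6 cnidocyte contigs summed to at least 48.3 in each library. Within origin 300, where 4 members fell, the summed cnidocyte list ran from 48.3 to 57.9 in pool 300 and from 67.9 to 81.1 in pool 400, and the 36 muscle contigs from 4103 to 4208 and from 3059 to 3789. Within origin 400 both lists overlapped between pools, at 52.3 to 110.8 and 53.7 to 150.3 for cnidocytes and at 3682 to 3913 and 2590 to 4561 for muscle. The sums of the neuron, germ line, sperm and cilia, and Symbiodinium lists overlapped between pools in both origins. For neurons in origin 300 they ran from 1016.6 to 1034.3 in pool 300 and from 834.5 to 1388.9 in pool 400. All these sums are as deposited and were not rescaled, and 2 of the 6 cnidocyte contigs reached a mean of 10. In pool 400 the deposited factors of corals 2, 7 and 75 were 1.29, 1.19 and 0.896 times the median-ratio factors. The distance between the sums of the pools in origin 300 therefore depends on the scaling. How often sums or contigs separate in this way was not counted, so nothing is read from the separation. The part of such markers in the falls of JAZF1, Pax and ERG was not tested.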

How the data were processed

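The authors deposited 1 table of 16980 contigs by 12 libraries. The deposited signal is a read count over a factor of its library: at a tolerance of 0.01 the deposited values are whole multiples of 1 read, except 1 value, read as 0. The pool 400 columns are marked as adjusted, per the file headers. The submitters' processing notes name BWA and DESeq, with no version or role. Build and strand are not given in the sources used here. Reads of near-identical contigs may be split between them.

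Contigs with a mean of at least 10 were tested (11903) on log2(value + 1), which understates the change of low contigs, with limma 3.58.1 in R 4.3.3 (variance trend, two-sided, Benjamini-Hochberg over all of them, threshold 0.05). Differences are pool 300 minus pool 400, or origin 300 minus origin 400. The coral was a block in the pool comparisons, since the labels give both fragments of a number to 1 animal. The pool difference of each origin came from 1 model of all 12 libraries that shares 1 spread, except where the libraries of that origin alone are named. The correlation of the deviations of a coral's fragments from the pool means was 0.659, 0.531, 0.588, 0.099, -0.006 and 0.396 for corals 2, 7, 75, 40, 68 and 70. Origin was tested on coral means. Alternatives were edgeR 4.0.16 and DESeq2 1.42.0 on the recovered reads, median-ratio rescaling, other pseudocounts and minimum means, other blocks and corals left out. Leaving out corals 40 and 68 together, and exchanging them in the coral means, were chosen after seeing the data. The fits were tested on simulated data.

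The members, families, lists and tests were chosen with earlier results of these data known. Members were named if called in any comparison, by smallest p per family and comparison, or as the most extreme of those with 1 sign in an origin. Others are named as chosen after their values were seen. Columns of group means in the table were not used.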

Additional observations from a re-analysis of the deposited data

How the results depend on the processing

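Counts of called contigs moved with the processing. Over 6 corals the 41 contigs, all lower in pool 300, went to 8 with rescaling, 8 with edgeR, 104 with DESeq2, 63 with corals 40 and 68 exchanged in the replicate block and 0 without those corals, and the count ranged from 4 to 74 with each coral left out. The members among them went from 3 to 1 with no replicate block and to 0 without corals 40 and 68, and ranged from 0 to 5 with each coral left out. In corals from pool 300 the 66 contigs became 43 with edgeR, 116 with DESeq2, 42 with no replicate block, 111 with the libraries of that origin alone and 9 to 94 with a coral left out. The members went from 4 to 2 with rescaling and 1 with edgeR, and ranged from 1 to 5. In corals from pool 400 the count of 0 became 8 with DESeq2, of which 1 is a member. For the difference between origins it became 2 with rescaling, 1 with edgeR, 2 with DESeq2 and 0 to 2 with a coral left out. For origin the 4 contigs became 2 at a minimum mean of 20, 1 with rescaling, 42 with DESeq2, 0 without corals 40 and 68 and 2 to 12 with a coral left out. The cause was not tested.

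Of 647 values of the 25 named members under other settings, 605 kept direction and side of the threshold, 32 missed it, 4 newly passed it and 6 changed sign. The sign changes came with a coral left out: the origin difference ranged from -0.568 to 0.025 in GATA-binding factor 2 contig138240, from -0.515 to 0.084 in Lhx1 contig58263 and from -0.10 to 0.35 in TBX1 contig97794, which had -0.12 without corals 40 and 68. The pool difference ranged from -0.316 to 0.088 in contig146729 and from -0.565 to 0.018 in contig97794. Contigs near a mean of 10 rest on few reads, so that counting error alone limits them, and origin had 3 corals a side.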
